A study of Homo sapiens with 6 samples.

Results

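Cells carry reducing power for biosynthesis and for defence against oxidants as NADPH. The cytosolic supply comes in large part from the oxidative branch of the pentose phosphate pathway, which turns glucose 6-phosphate into ribulose 5-phosphate. The non-oxidative branch then converts pentose phosphates into ribose 5-phosphate for nucleotides or back into glycolytic sugars. Cytosolic malic enzyme and isocitrate dehydrogenase form NADPH outside this pathway, and NAD kinase makes the NADP on which all of them depend. Several of these genes (PGD, TKT, TALDO1, ME1) are textbook targets of the transcription factor NRF2, which drives the response to oxidants.

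The enzymes described here are the 9 genes PGLS, PGD, RPIA, RPE, TKT, TALDO1, ME1, IDH1 and NADK, taken by symbol from 16617 genes of the authors' deposited table. All 9 were found. The samples were T3M4, an established human pancreatic ductal adenocarcinoma line, grown in DMEM with fetal bovine serum. There were 3 libraries from cells given a guide RNA against METTL13 (sgMETTL13, labelled METTL13 knockdown) and 3 from cells given a control guide (sgControl, labelled WT). METTL13 is a methyltransferase that modifies the elongation factor eEF1A. The labels used here do not say whether either line was 1 clone, nor whether the libraries came from separate cultures, so the p-values may measure technical spread. The table holds the mean of each group and the authors' comparison. Values of single libraries are not analysed here, and whether the groups overlap cannot be told.

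METTL13 averaged 142.67 estimated reads in sgMETTL13 and 1015 in sgControl per the authors' deposited table, with a log2 fold change of -2.78. Average reads summed to 15247500 per library in sgMETTL13 and 15240866 in sgControl per the authors' deposited table. All 6 epithelial and ductal markers were present, with summed TPM (a transcript abundance scaled for length and library size) of 4602 in sgMETTL13 and 4739 in sgControl per the authors' deposited table. INS, GCG, PTPRC and CD3E are not analysed here, while the 3 fibroblast markers summed to 14.4 TPM in sgMETTL13 and 14.2 in sgControl, nearly all of it COL1A1, per the authors' deposited table. The acinar, endocrine, endothelial and leukocyte markers in the table summed to at most 4.90 TPM per set in sgMETTL13 and 4.02 in sgControl. No marker passed the test.

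Promoter sequences are shown for a binding motif of NRF2, the antioxidant response element. Its core was searched as TGACNNNGC on both strands (read as GCNNNGTCA on the other) in RefSeq windows running from 250 bases before to 50 bases after each gene start (GRCh38.p14). All 9 genes had a window and 4 of them had a match, whereas 14.0% of the 19011 windows of genes in the table had one. Over the 12 windows of these enzymes, some of which have alternative starts, 33.3% had one. Several of these genes are known NRF2 targets, so the shares are not independent of the choice of genes. The difference between the shares was not tested. The matches are printed along the strand of the gene with 10 flanking bases, and capitals mark the core.
ME1, chr6:83431170-83431198, minus strand: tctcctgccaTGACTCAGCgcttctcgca
ME1, second match, chr6:83431022-83431050, minus strand: gctgcagtcaGCACCGTCAccccagcagc
IDH1, chr2:208255196-208255224, minus strand: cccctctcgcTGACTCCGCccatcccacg
RPE, chr2:210002477-210002505, plus strand: ggcggacggcTGACAGCGCcccaccccag
PGD, chr1:10398853-10398881, plus strand: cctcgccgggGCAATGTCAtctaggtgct
The upstream match of ME1 begins 137 bases before the start, that of IDH1 143, that of RPE 151 and that of PGD 201. PGLS, TKT, TALDO1, RPIA and NADK had no match, which says only that these letters are not in these windows. The PGLS window, shown because PGLS was the 1 gene of the 9 that passed the test, is printed with the 50 bases from the gene start onward in capitals.
PGLS, chr19:17511399-17511698, plus strand: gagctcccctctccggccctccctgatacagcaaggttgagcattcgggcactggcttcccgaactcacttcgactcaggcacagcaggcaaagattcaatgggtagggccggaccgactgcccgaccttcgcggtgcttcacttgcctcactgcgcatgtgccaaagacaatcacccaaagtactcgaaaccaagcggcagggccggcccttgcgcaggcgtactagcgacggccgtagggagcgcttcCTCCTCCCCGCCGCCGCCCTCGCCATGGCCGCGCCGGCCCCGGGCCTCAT

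The levels of the 9 transcripts spanned nearly 2 orders of magnitude. TKT, the transketolase that moves 2-carbon units between sugar phosphates, averaged 962.35 TPM in sgMETTL13 and 1065 TPM in sgControl per the authors' deposited table and ranked 139 of all genes. TALDO1, the transaldolase, followed with 372.82 TPM in sgMETTL13 and 381.77 TPM in sgControl per the authors' deposited table. PGLS, PGD and IDH1 came next, each between 146 and 291 TPM in sgMETTL13 and between 159 and 253 TPM in sgControl per the authors' deposited table. NADK and ME1 lay between 42.8 and 49.0 TPM in sgMETTL13 and between 46.6 and 51.0 TPM in sgControl per the authors' deposited table. RPE, at 22.56 TPM in sgMETTL13 and 24.01 TPM in sgControl, and RPIA, at 12.50 TPM in sgMETTL13 and 13.46 TPM in sgControl, were the lowest per the authors' deposited table. TKT alone made up 46.8% of the summed TPM of the 9 genes in sgMETTL13 and 49.0% in sgControl. The non-oxidative branch as a whole held 66.7% of that sum in sgMETTL13 and 68.3% in sgControl, while PGLS and PGD together held 21.7% in sgMETTL13 and 19.9% in sgControl. The order of the 9 levels was the same in both groups, but the table gives no spread over libraries with which neighbours such as NADK and ME1 could be told apart.

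**Figure D1:**
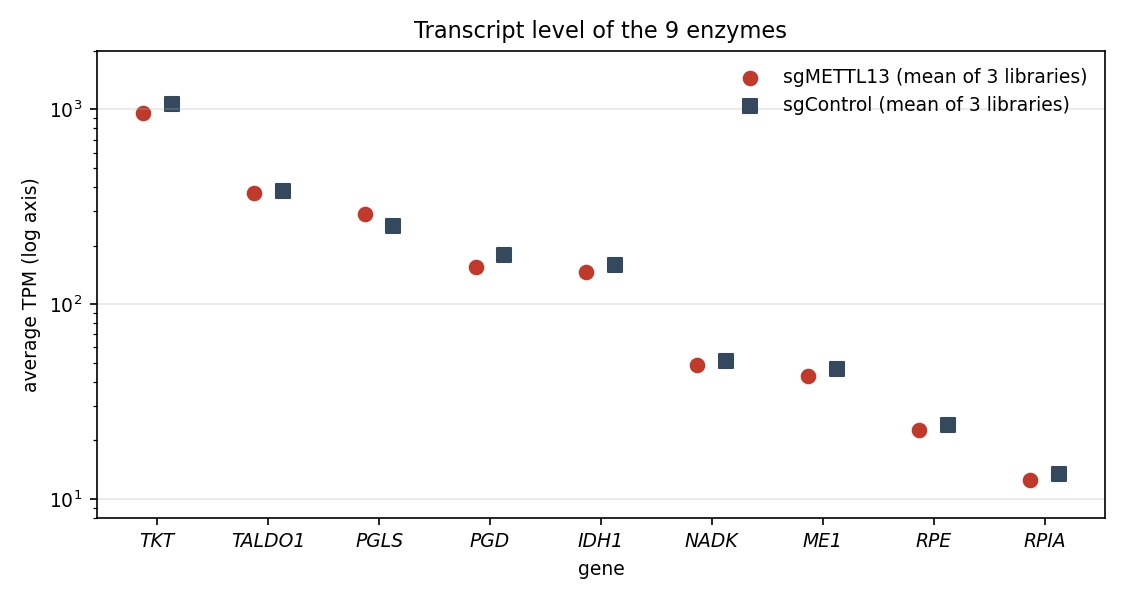
Average TPM per the authors' deposited table (log axis) of the 9 genes, sorted by level, with circles for sgMETTL13 and squares for sgControl, each the mean of 3 libraries with no error available. TKT lies 77.0 times above RPIA in sgMETTL13 and 79.1 times in sgControl, and PGLS is the gene whose sgMETTL13 level lies above its sgControl level.

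Of the 9 enzymes 1 passed the test, and it was higher in sgMETTL13. A gene counts as called at an adjusted p under 0.05 over all genes per the authors' deposited table. In the same comparison 3.80% of all genes were called (2.73% as higher, 1.08% as lower, per the authors' deposited table), and from 1 call among 9 genes no difference from that background is read. The other 8 genes had log2 fold changes between -0.13 and 0.04 per the authors' deposited table. Of all 9, 4 lay above 0 and 5 below, with a median of -0.03 beside a median of 0.00 over all genes per the authors' deposited table.

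**Figure D2:**
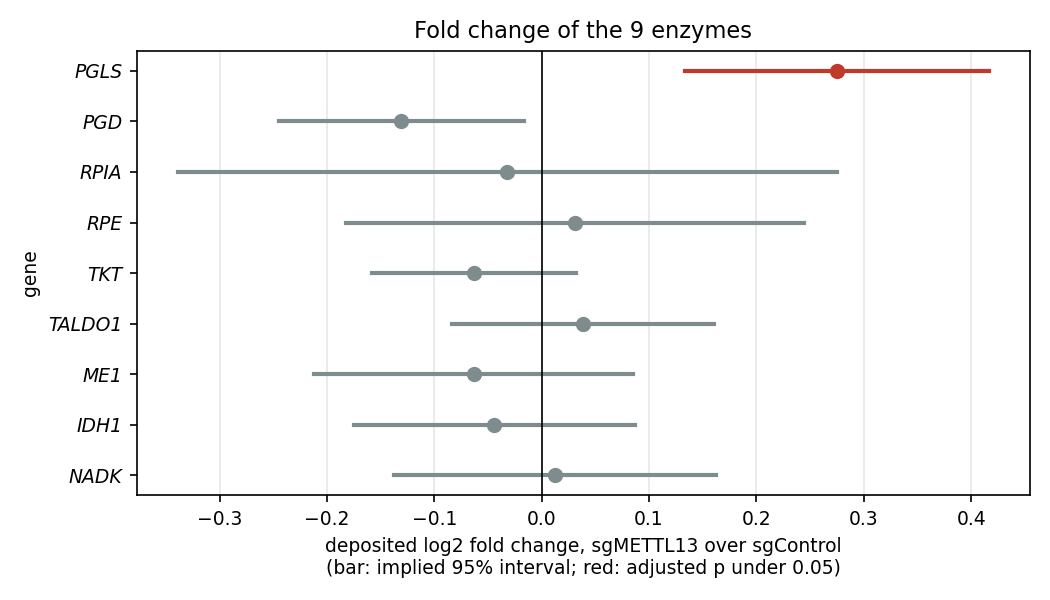
Deposited log2 fold change of sgMETTL13 over sgControl for each enzyme (point) with the implied 95% interval (bar), red where the adjusted p is under 0.05. The interval of PGLS runs from 0.13 to 0.42, that of PGD from -0.24 to -0.02, and the other 7 include 0.

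The oxidative branch held the extremes of the set. PGLS (Entrez gene 25796) encodes 6-phosphogluconolactonase, which hydrolyses the lactone made by the first dehydrogenase. It averaged 2193 estimated reads and 291.09 TPM in sgMETTL13, against 1878 reads and 252.84 TPM in sgControl, per the authors' deposited table. PGLS was thus the more abundant in sgMETTL13 on both scales, though in bulk RNA more cells with the transcript and more transcript per cell cannot be told apart. Its log2 fold change was 0.28 per the authors' deposited table, a rise of 21.0%, with an adjusted p of 0.00619. The implied standard error, found by dividing the size of the log2 ratio by the normal deviate that its p-value stands for, was 0.072, and the implied 95% interval ran from a rise of 9.73% to a rise of 33.5%. Of the 8309 genes with at least the median number of reads, 4.51% had a log2 fold change at least as high as that of PGLS per the authors' deposited table.

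The call of PGLS was lost once a smooth trend of fold change with transcript GC content and length, fitted over all genes, was taken out. The GC content of PGLS transcripts (median 64.8% over its annotated transcripts) was the highest of the 9, whose lowest was ME1 at 39.5%, and the median over all genes was 50.6%. With that trend taken out, the log2 fold change of PGLS was 0.15 with an adjusted p of 0.376; taking the trend out also centres the fold changes. By the ratio of mean TPM the log2 value of PGLS was 0.20 with an adjusted p of 0.0740, which also misses the threshold. The trend itself was 0.12 at the GC content and length of PGLS, and its part in the rise was not tested. PGLS lies at 17511629 to 17521288 on chromosome 19 (plus strand; this and the positions below are GRCh38, GENCODE 29). It shares 261 exonic bases with AC010618.3, a noncoding gene on the opposite strand that is not in the table. The sources used here do not state whether counting used the strand, so reads of that gene and of PGLS cannot be told apart.

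PGD (Entrez gene 5226, chromosome 1, 10398592 to 10420144, plus strand), the 6-phosphogluconate dehydrogenase, follows PGLS in the pathway and forms NADPH directly. It averaged 2769 estimated reads and 155.05 TPM in sgMETTL13, against 3142 reads and 178.58 TPM in sgControl, per the authors' deposited table. PGD was thus lower in sgMETTL13 on both scales. The log2 fold change was -0.13 per the authors' deposited table, with an unadjusted p of 0.0246 and an adjusted p of 0.267, so it did not pass the test. Its implied 95% interval ran from -0.24 to -0.02. The scale mattered here, since the ratio of mean reads at equal library totals gave -0.18 (adjusted p = 0.0407) and the ratio of mean TPM -0.20 (adjusted p = 0.0150), both past the threshold when the implied standard error was kept.

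PGLS and PGD act one after the other, and their values differed in sign. The ratio of PGLS to PGD, which no single scaling factor between the groups can alter, was 1.88 in sgMETTL13 and 1.42 in sgControl in TPM of the authors' deposited table. That difference was not tested, because the table has no value per library. The trend in GC content and length differs by gene and does alter the ratio. Without it the log2 fold changes were 0.15 for PGLS and -0.17 for PGD.

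None of the 4 genes of the non-oxidative branch passed the test, and none had an unadjusted p under 0.05. Of all 16617 genes, 1271 were higher and 797 lower at that unadjusted level. From 4 genes no difference from that background is read. TKT (Entrez gene 7086, chromosome 3, 53224707 to 53256052, minus strand) averaged 16231 estimated reads in sgMETTL13 and 17576 in sgControl per the authors' deposited table. Its log2 fold change of -0.06 per the authors' deposited table had an implied 95% interval from -10.4% to 2.27% as a percent change. By the ratio of mean TPM TKT stood at -0.15 (adjusted p = 0.0505), and without the trend in GC content and length at -0.13 (adjusted p = 0.161). TKT had the smallest implied standard error of the 9 genes, 0.049, at which a log2 change of 0.15 would have been called. That error is 5.37 times the error that read counting alone would give, so read counting is a small part of it.

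TALDO1 (Entrez gene 6888, chromosome 11, 747329 to 765024, plus strand) averaged 3422 estimated reads in sgMETTL13 and 3455 in sgControl per the authors' deposited table, a log2 fold change of 0.04. The implied 95% interval of TALDO1 ran from -0.08 to 0.16. The sign of the small TALDO1 difference depended on the scale: its mean reads and TPM were slightly lower in sgMETTL13, while the deposited fold change, which the authors scaled between groups by 0.05 on the log2 scale, lies above 0.

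RPE and RPIA isomerise ribulose 5-phosphate, RPE to xylulose 5-phosphate and RPIA to ribose 5-phosphate. RPE (Entrez gene 6120, chromosome 2, 210002565 to 210022259, plus strand) averaged 447.69 estimated reads in sgMETTL13 and 454 in sgControl per the authors' deposited table, and its log2 ratio was 0.03 (implied 95% interval -0.18 to 0.24). RPIA (Entrez gene 22934, chromosome 2, 88691644 to 88750935, plus strand) averaged 173.33 reads in sgMETTL13 and 183.67 in sgControl per the authors' deposited table, and its log2 ratio was -0.03 (implied 95% interval -0.34 to 0.28). Both intervals are wide. RPIA was the 1 member below the median read count of 205.01. At its implied standard error of 0.157 an estimated log2 change under 0.49 would not have been called.
The RPE average is also the 1 among the 9 genes that is not a multiple of 1 read over 3 libraries, as happens where reads are divided between genes. RefSeq lists 6 pseudogenes named after RPE, none of which is in the table, and RPE shares 837 exonic bases with KANSL1L on the opposite strand. KANSL1L averaged 62.68 reads in sgMETTL13 and 57.67 in sgControl per the authors' deposited table, and how reads were divided between the genes is not known here.

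**Figure D3:**
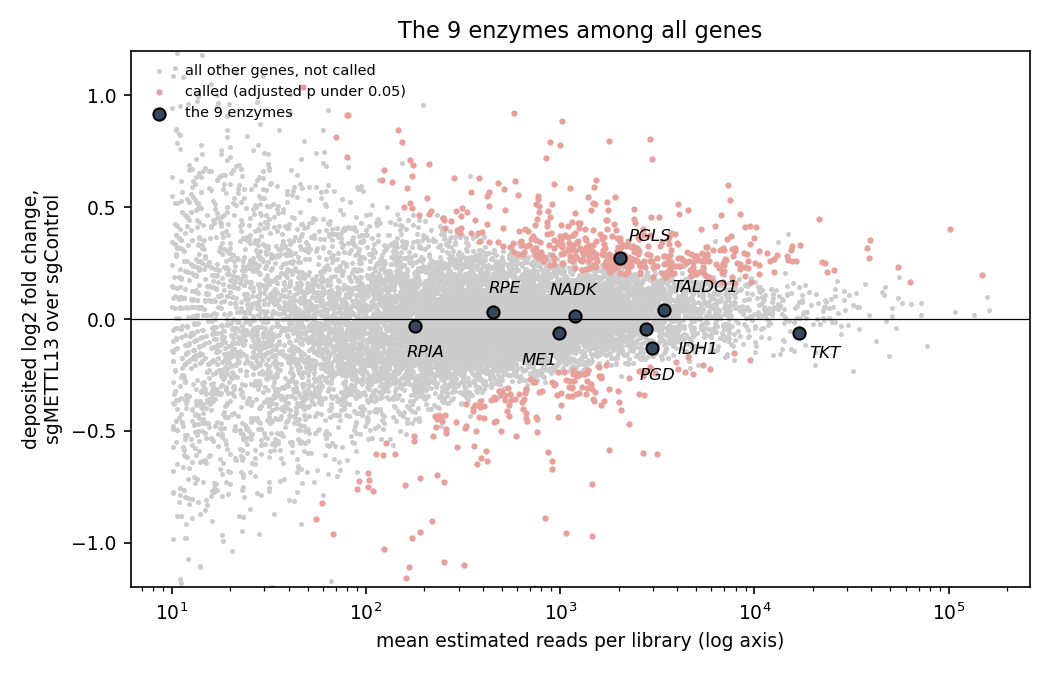
Mean estimated reads per library (log axis) against the deposited log2 fold change for 12650 genes with at least 10 mean reads, with called genes in pale red and the 9 enzymes as dark points; genes beyond 1.2 in size are not shown. PGLS lies among the called rises, and the other 8 lie within the uncalled band at their depth.

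The cytosolic dehydrogenases outside the pathway did not pass the test, nor did either have an unadjusted p under 0.05. ME1 (Entrez gene 4199, chromosome 6, 83210389 to 83431071, minus strand), the cytosolic malic enzyme that turns malate into pyruvate, averaged 949 estimated reads and 42.78 TPM in sgMETTL13, against 1028 reads and 46.59 TPM in sgControl, per the authors' deposited table. The log2 fold change of ME1 was -0.06 per the authors' deposited table, with an implied 95% interval from -0.21 to 0.09. Without the trend in GC content and length ME1 stood at -0.0024, and by the ratio of mean TPM at -0.12. IDH1 (Entrez gene 3417, chromosome 2, 208236227 to 208266074, minus strand), the cytosolic and peroxisomal NADP-dependent isocitrate dehydrogenase, averaged 2684 estimated reads and 146.32 TPM in sgMETTL13, against 2868 reads and 158.77 TPM in sgControl, per the authors' deposited table. The log2 fold change of IDH1 was -0.04 per the authors' deposited table, with an implied 95% interval from -0.18 to 0.09. The ratio of IDH1 to ME1 was 3.42 in sgMETTL13 and 3.41 in sgControl in TPM of the authors' deposited table. IDH1 shares 94 exonic bases with the antisense gene IDH1-AS1, which is not in the table.

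NADK (Entrez gene 65220, chromosome 1, 1751232 to 1780457, minus strand), the cytosolic NAD kinase, averaged 1169 estimated reads and 48.98 TPM in sgMETTL13, against 1201 reads and 51.04 TPM in sgControl, per the authors' deposited table. Its log2 fold change of 0.01, the closest to 0 of the 9, came with an implied 95% interval from -0.14 to 0.16 per the authors' deposited table. A log2 change of 0.24 would have been called at the implied standard error of NADK.

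Related genes were read from 4 further lists. They hold 42 genes reported here, the table has 40 of those, and 1 was called per the authors' deposited table. Among all genes 3.80% were called, and 1271 of 16617 were higher and 797 lower at an unadjusted p under 0.05. From the few genes of each list no difference from these shares is read. Of 9 measured genes among the other pentose phosphate genes none was called per the authors' deposited table, and none had an unadjusted p under 0.05. The list had a median log2 fold change of -0.09 and 8 of 9 values below 0 per the authors' deposited table. Beside it, 8278 of all 16617 genes lay below 0. In this list 2 genes had fewer reads than the median gene, and the direction of the list was not tested. PRPS2, a synthetase that makes phosphoribosyl pyrophosphate from ribose 5-phosphate, had a log2 fold change of -0.14 per the authors' deposited table, TIGAR, a sugar bisphosphatase that favours the pathway, -0.10, and PGM2, which handles pentose 1-phosphates, -0.03. H6PD, which runs the oxidative steps in the endoplasmic reticulum, had a log2 fold change of -0.09 at 3.41 TPM in sgMETTL13 and 3.84 TPM in sgControl per the authors' deposited table. The transketolase-like gene TKTL2 averaged 0 reads in sgMETTL13 and 2 in sgControl per the authors' deposited table, and TKTL1 and RPEL1 are not analysed here.

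Among the 9 other NADPH sources 0 were called per the authors' deposited table, and 1 had an unadjusted p under 0.05. Of these 9, 4 had fewer reads than the median gene, so for them a missing call says little. That gene was MTHFD1, the cytosolic folate enzyme whose dehydrogenase forms NADPH, with a log2 fold change of -0.20 per the authors' deposited table (adjusted p = 0.116). MTHFD1 passed the threshold on the ratio of mean TPM (-0.27, adjusted p = 0.00861) and of mean reads (-0.25, adjusted p = 0.0202). NADK2, the mitochondrial counterpart of NADK, stood at -0.22 (implied 95% interval -0.45 to 0.00) and MTHFD2, a mitochondrial folate dehydrogenase, 0.12 per the authors' deposited table. IDH2 and ME3, the mitochondrial counterparts of IDH1 and ME1, stood at -0.08 and -0.02 per the authors' deposited table, and ME3 at 0.06 by the ratio of mean TPM. The implied 95% interval of ME3 was wide, from -0.62 to 0.58. The median of the list was -0.08, with its 4 genes of low count included. NNT, the mitochondrial transhydrogenase that forms NADPH from NADH, was named after its values were seen: it averaged 0 reads in sgMETTL13 and 0.333 in sgControl per the authors' deposited table.

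The 6 NAD-linked counterparts, which use NAD in place of NADP, gave 0 calls per the authors' deposited table and 1 unadjusted p under 0.05. IDH3A, the catalytic subunit of the NAD-dependent isocitrate dehydrogenase, had a log2 fold change of -0.22 per the authors' deposited table (adjusted p = 0.223; -0.29 and 0.0443 on the ratio of mean TPM). The other subunits IDH3B and IDH3G had 0.08 (-0.0045 by the ratio of mean TPM) and -0.07, the malate dehydrogenases MDH1 and MDH2 -0.14 and -0.02, and the mitochondrial malic enzyme ME2 -0.07 per the authors' deposited table. The median of the list was -0.07 per the authors' deposited table.

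Of the 16 genes reported here whose products consume NADPH, 1 passed the test per the authors' deposited table, a rise. An unadjusted p under 0.05 was found for 2 genes that were higher and 1 that was lower. Of all 16617 genes, 1271 were higher and 797 lower at that level. No difference of the list from that background is read. TXNRD1, the cytosolic thioredoxin reductase, averaged 358.87 TPM in sgMETTL13 and 319.11 TPM in sgControl, with a log2 fold change of 0.24 (adjusted p = 0.000204) per the authors' deposited table. TXNRD1 was also called once the trend in GC content and length was taken out (0.25, adjusted p = 0.000120). FASN, the fatty acid synthase, missed the threshold at -0.23 (adjusted p = 0.0541) per the authors' deposited table and passed it without the trend (-0.35, adjusted p = 0.000430). For FASN that fit used a length of 424 bases, a median over annotated transcripts that can differ from the length of the main one. GSR, the glutathione reductase, and NQO1, the quinone reductase, both named after their values were seen, had log2 fold changes of 0.13 and 0.12 per the authors' deposited table (0.055 and 0.049 by the ratio of mean TPM) and did not pass the test. POR, CRYZ and DCXR, also named after their values were seen, stood at 0.16, -0.36 and -0.06 per the authors' deposited table and were not called. CRYZ averaged only 66.3 reads in sgMETTL13 and 88.3 in sgControl. The median of these 16 genes was 0.04 per the authors' deposited table, with 11 values above 0 and 5 below. By the ratio of mean TPM 6 lay above 0 and 10 below.

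**Figure D4:**
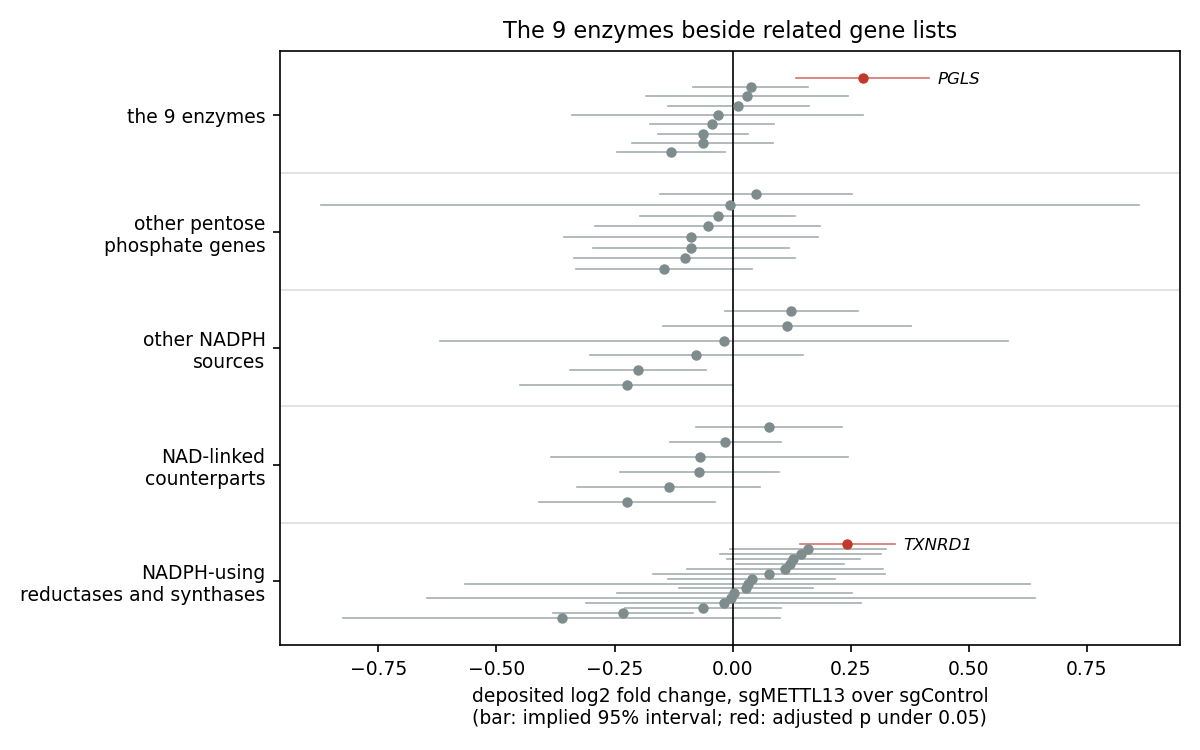
Deposited log2 fold change (points) with implied 95% interval (bars) of the 9 enzymes and of the 4 related lists, for genes with at least 10 mean reads, red where the adjusted p is under 0.05. PGLS and TXNRD1 are the called genes among those plotted.

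The signs of the small differences among the 9 enzymes were not stable to scaling. In the deposited fold changes 4 of 9 lay above 0, while only PGLS did by the ratio of the mean TPM values of the authors' deposited table. TALDO1, RPE and NADK turned below 0 on that scale, at -0.03, -0.09 and -0.06. Over all genes 5273 lay above 0 and 10019 below by the ratio of mean TPM. As deposited, 8339 genes lay above 0 and 8278 below. The same choice moved the split over all genes: 71.7% of calls were higher in sgMETTL13 per the authors' deposited table, 29.8% by the ratio of mean TPM, 43.0% by the ratio of mean reads at equal totals and 58.2% once the trend was taken out. PGLS lay above 0 and PGD, TKT, ME1, IDH1 and RPIA below 0 on all 5 scalings shown in the plot of scalings.

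**Figure D5:**
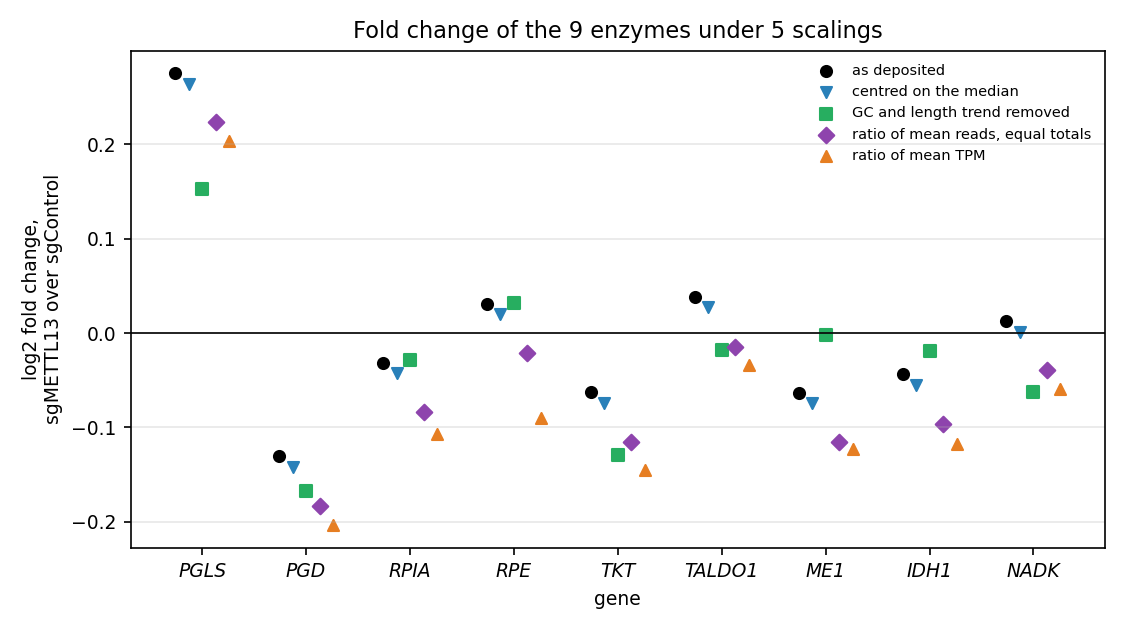
Log2 fold change of sgMETTL13 over sgControl for each enzyme under 5 scalings (marker shapes), with no error shown. PGLS spans 0.15 to 0.28 and PGD -0.20 to -0.13, while TALDO1, RPE and NADK have values on both sides of 0.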

How the data were processed

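RNA was extracted with TRIzol and libraries were made by a sequencing company, per the labels' protocols. The submitters' processing notes name RSEM 1.2.12, Bowtie2 2.2.5, HISAT2 2.0.4 and DESeq2, and the builds GRCh38.p12 and hg38, without a role or an order in the sources used here. Samples were grouped by the guide in their titles, and the labels tie KD columns to sgMETTL13 and WT columns to sgControl.

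Per the file headers, the table holds average TPM, average FPKM (not used) and average read counts of each group, and a log2 ratio, p-value and q-value of the authors' comparison. The averages as deposited by the authors are of estimated counts, since for 21.4% of genes the average times 3 libraries is no whole number (tolerance 0.005). The deposited log2 fold change equals the log2 ratio of mean reads plus 0.052 (SD 0.00072 over the 8309 more abundant genes). A Benjamini-Hochberg adjustment of the authors' p-value comes within 1.20% of their q-value, which is called the adjusted p here.

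No count model was fitted, because no value per library is analysed here; depth per library is unknown. The implied standard error assumes a normal test. Under other scalings it was kept and p-values were adjusted again over all genes. The trend was a weighted spline fit (4 degrees of freedom each) in GC content and log2 length, medians over GENCODE 29 transcripts, for 97.6% of genes, and was tested on simulated data. Python 3.11.15 was used with scipy 1.17.1, numpy 2.4.6, patsy 1.0.2, matplotlib 3.10.9 and pandas 2.3.3. The members and lists were chosen with earlier results of these data known. Genes named are the 9 enzymes, their paralogues, METTL13, and of each list the called genes or the 3 with the smallest adjusted p, and the gene with the highest TPM. Genes marked as named after their values were seen fall outside that rule. A gene of the lists is not reported here, and the counts and medians of its list are without it.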

Additional observations from a re-analysis of the deposited data

How the results depend on the processing

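Settings were run on the counts of calls and on each of the 9 enzymes. PGLS was not called under Bonferroni (0.28), without the GC and length trend (0.15) or by the ratio of mean TPM (0.20), and PGD was called by the ratios of mean TPM (-0.20) and of mean reads (-0.18). Of the 9 enzymes 0 were called under Bonferroni and without the trend, and 2 by the ratio of mean reads. Over all genes 409 were called at an adjusted p under 0.01 and 180 under Bonferroni, against 632 of 16617 as deposited. Without the trend 452 of 16212 genes were called, by the ratio of mean reads 683 of 15501 and by the ratio of mean TPM 826 of 15499. At an adjusted p under 0.1 the number was 889, with the count filter 776 of 8309 and centred 628. With no sign of divided reads it was 559 of 13067. Whether the members or lists differ from these shares was not tested. The NADPH users gave 2 calls in place of 1 at an adjusted p under 0.1, with the count filter, centred, without the trend, by both ratios and with no sign of divided reads, the second being FASN. By the ratio of mean TPM the NAD-linked list and the other NADPH sources gave 1 call each, and the other NADPH sources also 1 by the ratio of mean reads. Signs turned for RPE (-0.0897 by mean TPM, -0.0208 by mean reads), TALDO1 (-0.0342 by mean TPM, -0.0143 by mean reads, -0.0185 without the trend), NADK (-0.0595 by mean TPM, -0.0392 by mean reads, -0.0623 without the trend), ME3 (0.0585 by mean TPM) and IDH3B (-0.0045 by mean TPM). The cause was not tested. The restriction to genes with no sign of divided reads was chosen after seeing the data; it leaves out RPE, and the count filter leaves out RPIA. Leaving out replicates was not run, and no paired analysis was possible because the columns are group averages. Depth limits RPIA and RPE most.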
